A study of Homo sapiens with 12 samples.

Results

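The 8 genes TCP1, CCT2, CCT3, CCT4, CCT5, CCT6A, CCT7 and CCT8 encode the subunits of the cytosolic chaperonin TRiC, also called CCT. They were matched by symbol, and all 8 were found among the 58174 genes of the table and passed the filter on low values that 13458 genes passed. TRiC is a double ring in which each ring holds 1 copy of each of the 8 subunits, and it closes over a newly made protein in a cycle driven by ATP. Each subunit has its own fixed place in the ring and its own surface for binding substrates. Its best known substrates are the tubulins and actins, which the hexameric co-chaperone prefoldin hands over. The tubulin folding cofactors then assemble the tubulins, but not the actins, into tubulin dimers. The cells were HCT116, an established human colorectal carcinoma line, and the drug was dolastatin 15, a peptide of marine origin that binds tubulin and blocks microtubule assembly.

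Cells were given dolastatin 15 at 20 nM or 100 nM, or the solvent DMSO, and RNA was taken after 16 h or 24 h, which makes 6 groups of 2 libraries. In the deposited table, libraries 1 and 2 were 20 nM at 16 h, 3 and 4 were 100 nM at 16 h, 5 and 6 were solvent at 16 h, 7 and 8 were 20 nM at 24 h, 9 and 10 were 100 nM at 24 h, and 11 and 12 were solvent at 24 h. All wells shared 1 cell line, medium with 5% serum and 0.25% DMSO. Values are FPKM, fragments counted per transcript length and per mapped fragments of the library, so they can be set beside each other between genes. The labels call the treatments duplicates without saying whether the wells were separate cultures, so what the p-values reflect is the spread among these libraries alone, part of which may be technical. In such bulk RNA, fewer cells of a kind and less RNA per cell cannot be told apart.

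The summed FPKM of a library was 911720 to 1049890, and the depth in reads is unknown. Mitochondrially encoded genes held 23.8% and 25.8% of that sum at 20 nM for 24 h, 18.8% and 20.7% at 100 nM for 24 h, and 17.9% and 18.6% in solvent at 24 h, while the 16 h libraries lay between 21.6% and 24.5%. The subunits were therefore also fitted after rescaling over nuclear genes alone. The epithelial markers KRT8 (409.6 to 458.2 FPKM), KRT18 (204.0 to 253.1) and EPCAM (250.6 to 335.3) were high in every library and CDH1 was low (2.91 to 3.92). Of the markers of other cell types, PTPRC reached 0.02, PECAM1 0.30 and ALB 0.55 FPKM, while COL1A1 lay between 1.44 and 4.34 FPKM. COL1A1 was 3.23 to 3.29 and 2.27 to 2.82 FPKM at 20 and 100 nM for 24 h, against 3.66 to 4.34 in solvent. Which cells it came from, and any bearing on the subunit values, was not tested.

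The subunits are paralogs built around a shared ATP-binding site. The coding stretch around that site is shown for all 8, since it is both the hallmark of the family and the place where their reads might be confused. Capitals mark the codons of the motif glycine-aspartate-glycine-threonine, and each run is 5′ to 3′ on the coding strand of GRCh38, translated from the principal GENCODE 29 transcript.
TCP1: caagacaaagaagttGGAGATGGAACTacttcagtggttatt
CCT2: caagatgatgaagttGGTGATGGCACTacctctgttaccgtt
CCT3: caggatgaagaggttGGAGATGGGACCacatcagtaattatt
CCT4: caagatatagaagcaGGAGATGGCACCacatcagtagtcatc
CCT5: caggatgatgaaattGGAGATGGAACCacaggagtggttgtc
CCT6A: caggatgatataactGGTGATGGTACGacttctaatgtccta
CCT7: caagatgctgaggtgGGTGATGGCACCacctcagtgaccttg
CCT8: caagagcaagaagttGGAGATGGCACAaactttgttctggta

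Each subunit held this motif once, and 9 of its 12 bases were identical in all 8. CCT4 and CCT5 were the most alike pair, with 39.5% identical residues over their aligned proteins, and CCT6A and CCT8 the least alike, with 27.2%; the median of the 28 pairs was 32.6%. The 8 genes lie on 7 chromosomes. TCP1 is at chr6:159778498-159789749 on the minus strand, CCT2 at chr12:69585334-69601570 on the plus strand, CCT3 at chr1:156308968-156367873 on the minus strand and CCT4 at chr2:61868089-61888804 on the minus strand. CCT5 is at chr5:10249921-10266412 on the plus strand, CCT6A at chr7:56051630-56063989 on the plus strand, CCT7 at chr2:73233420-73253021 on the plus strand and CCT8 at chr21:29055805-29073797 on the minus strand (all GRCh38). The printed stretch lies within 1 coding exon in CCT2 (exon 5 of 16), CCT3 (exon 5 of 14), CCT4 (exon 4 of 14), CCT6A (exon 3 of 14) and CCT8 (exon 4 of 15), and it spans the junction of exons 3 and 4 in TCP1, CCT5 and CCT7.

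No stretch of 100 bases, the read length, in the principal transcript of any subunit occurred in a transcript of another gene on the same strand. Reads that fall wholly within 1 subunit can therefore be told from those of the other 7, and mismatches in reads were not considered. On the opposite strand, 12.5% of such stretches of TCP1 are shared with ACAT2, 7.31% of those of CCT4 with AC107081.2 and 46.4% of those of CCT5 with AC012640.4. The library kit was directional, but how the counting used strand is not given in the sources used here. These 3 genes carry that uncertainty. AC012640.4 reached 0.13 FPKM and AC107081.2 reached 0.21 FPKM. ACAT2, a thiolase of sterol synthesis, lay between 25.4 and 39.7 FPKM and fell in all 4 drug comparisons, by 0.34 and 0.28 on the log2 scale at 20 and 100 nM for 16 h and by 0.34 and 0.46 for 24 h (limma, adjusted p = 0.00446, 0.00898, 0.00292 and 0.000529). The 13 annotated subunit pseudogenes were at or near 0. CCT6P1 reached 3.11 FPKM and CCT6P3 reached 1.34 FPKM, and these 2 were the only pseudogenes tested.

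All 8 subunits were abundant, and they fell into an uneven order although the complex holds them in equal number. CCT3 averaged 627.6 ± 30.0 FPKM (SD over the 12 libraries), CCT7 averaged 623.6 ± 38.6 and CCT5 averaged 598.1 ± 31.8. These 3 could not be ordered: CCT3 was above CCT7 in 6 of 12 libraries and CCT7 above CCT5 in 10. CCT2 (458.0 ± 32.1 FPKM) and TCP1 (427.6 ± 26.1) formed a middle pair whose ranges overlapped, with CCT2 higher in 11 of 12 libraries. CCT8 followed at 350.2 ± 11.9, then CCT6A at 260.2 ± 11.9 and CCT4 at 232.4 ± 14.4 FPKM. The gaps from CCT5 down to CCT2, from TCP1 to CCT8 and from CCT8 to CCT6A exceeded all variation between libraries, while the ranges of CCT6A and CCT4 overlapped even though CCT6A was higher in 12 of 12 libraries. Between 96.5% and 98.7% of the tested genes had a lower mean than a given subunit.

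Across doses and times, subunit mRNA varied little. The coefficient of variation over the 12 libraries had a median of 5.71% over the 8 subunits, against 8.48% over the 1282 tested genes with a mean of at least 100 FPKM and 13.0% over all tested genes. CCT8 was the steadiest, at 3.41%, with a highest value only 1.12 times its lowest. CCT2 varied most, at 7.00%, with a highest value 1.26 times its lowest.

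**Figure D1:**
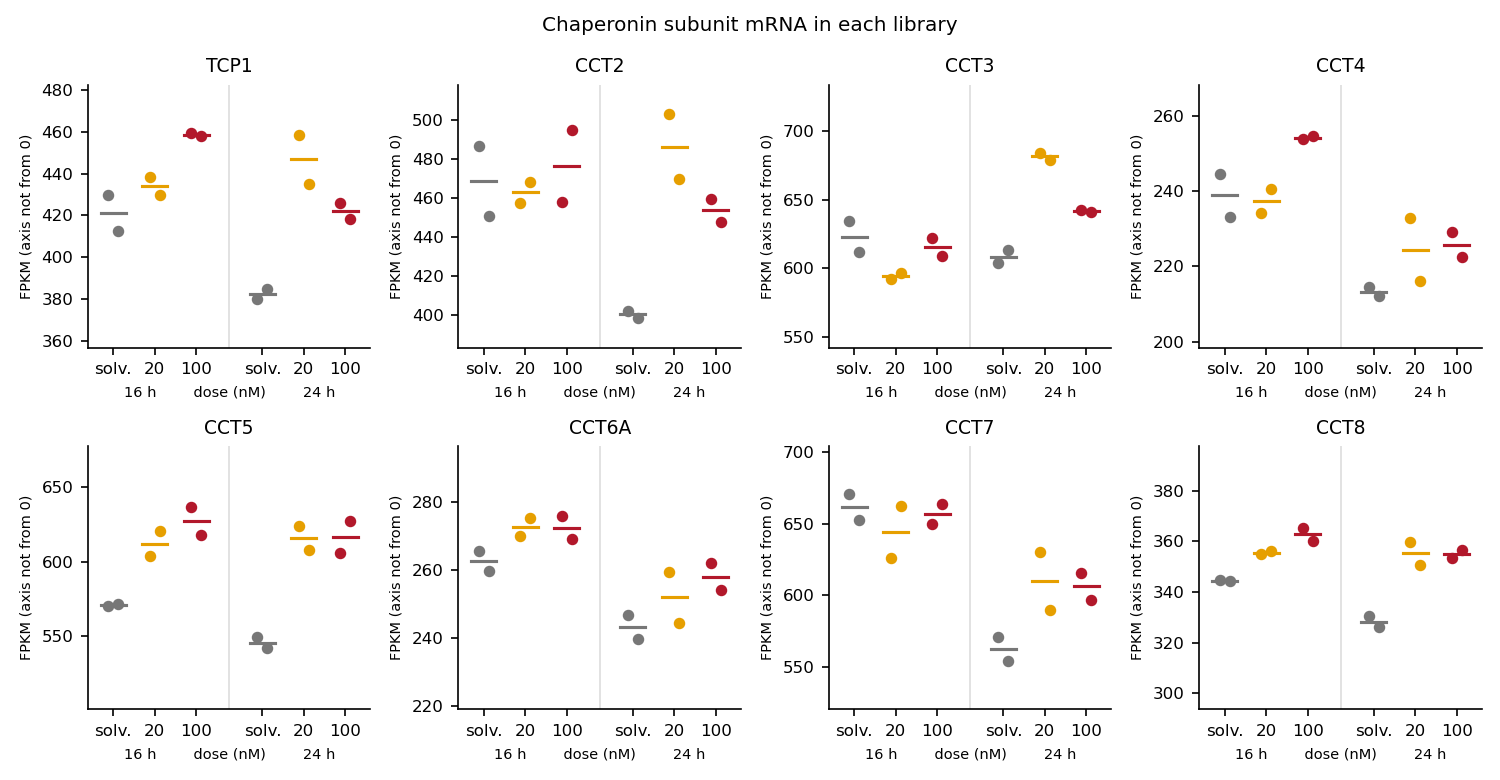
FPKM of each chaperonin subunit in each of the 12 libraries (points), by dose in nM and time, with group means as bars; axes do not start at 0. For 7 of the 8 subunits the solvent group at 24 h had the lowest mean, as it had for 17.8% of all tested genes. CCT3 had its lowest mean at 20 nM for 16 h. Under TPM the solvent group at 24 h is lowest for 2 subunits.

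The tests, 2-sided, came from 1 limma fit of log2(FPKM + 1) over all 12 libraries and 13458 genes, and genes with a p under 0.05 after Benjamini-Hochberg adjustment were called. After 24 h at 20 nM, 5 of 8 subunits rose and none fell. In this comparison 28.8% of all tested genes were called, 14.7% as higher and 14.1% as lower. TCP1 reached 458.7 and 435.2 FPKM at 20 nM, against 380.1 and 385.0 in solvent. Its increase was 0.22 on the log2 scale (SE 0.04, adjusted p = 0.00274), or 1.17-fold. TCP1 is the founding member of the family. CCT2 had the largest change of the 8, with 503.0 and 469.7 FPKM at 20 nM, against 402.0 and 398.4 in solvent. All its treated libraries were above its solvent libraries, and the change was 0.28 (SE 0.05, adjusted p = 0.00520), or 1.21-fold. CCT3 had 684.3 and 679.2 FPKM at 20 nM, against 604.3 and 613.2 in solvent, and rose by 0.16 (SE 0.03, adjusted p = 0.00520). CCT5, whose mutation causes a sensory neuropathy in humans, had 624.0 and 607.7 FPKM at 20 nM, against 549.3 and 541.8 in solvent. It rose by 0.17 (SE 0.03, adjusted p = 0.00572). CCT8 had 359.8 and 350.7 FPKM at 20 nM, against 330.6 and 326.0 in solvent, a smaller gap that also passed (0.11, SE 0.03, adjusted p = 0.0199).

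The other 3 subunits were not called at 20 nM for 24 h. CCT4, a neighbour of CCT2 in the ring, had 232.9 and 216.1 FPKM at 20 nM, against 214.5 and 212.2 in solvent, without overlap but with wide spread among treated libraries (0.07, adjusted p = 0.242). CCT6A had 259.6 and 244.6 FPKM at 20 nM, against 246.8 and 239.8 in solvent, and the groups overlapped (0.05, adjusted p = 0.371). CCT7 had 630.5 and 589.5 FPKM at 20 nM, against 571.2 and 554.3 in solvent (0.12, adjusted p = 0.0805). In 7 of 8 subunits both treated libraries were above both solvent libraries, which held for 31.5% of all tested genes. The median change of the 8 was 0.14, beside 0.00 over all tested genes.

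After 24 h at 100 nM, 4 of 8 subunits rose and none fell, where 33.8% of all tested genes were called, 15.4% as higher and 18.4% as lower. TCP1 had 425.9 and 418.4 FPKM at 100 nM, against the same solvent libraries at 380.1 and 385.0 (0.14, SE 0.04, adjusted p = 0.0171). CCT2 had 459.5 and 447.6 FPKM at 100 nM, against 402.0 and 398.4 in solvent (0.18, SE 0.05, adjusted p = 0.0289). CCT5 had 606.0 and 627.3 FPKM at 100 nM, against 549.3 and 541.8 in solvent (0.18, SE 0.03, adjusted p = 0.00437). CCT5 was thus raised 1.13-fold at both doses. CCT8 had 353.5 and 356.4 FPKM at 100 nM, against 330.6 and 326.0 in solvent (0.11, SE 0.03, adjusted p = 0.0183). CCT3 had 642.6 and 641.2 FPKM, against 604.3 and 613.2 in solvent, and missed the threshold (0.08, adjusted p = 0.0863). The same held for the remaining 3, whose treated libraries were all above solvent by small steps. CCT4 had 229.1 and 222.5 FPKM at 100 nM, against 214.5 and 212.2 in solvent (0.08, adjusted p = 0.178). CCT6A had 262.0 and 254.2 FPKM at 100 nM, against 246.8 and 239.8 in solvent (0.08, adjusted p = 0.127). CCT7 had 615.3 and 597.1 FPKM at 100 nM, against 571.2 and 554.3 in solvent (0.11, adjusted p = 0.0912). In all 8 subunits both treated libraries were above both solvent libraries, as in 32.0% of all tested genes. The median change of the 8 was 0.11, beside -0.02 over all tested genes.

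Both 24 h comparisons rest on libraries 11 and 12. Without either of them, or without either 100 nM library, the calls of TCP1, CCT2 and CCT8 at 100 nM were lost (adjusted p between 0.0539 and 0.136), which left 1 of 4. At 20 nM the call of CCT8 was lost without library 7, 11 or 12 (adjusted p between 0.0559 and 0.0999), whereas TCP1, CCT2, CCT3 and CCT5 at 20 nM and CCT5 at 100 nM stayed called without any 1 library.

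**Figure D2:**
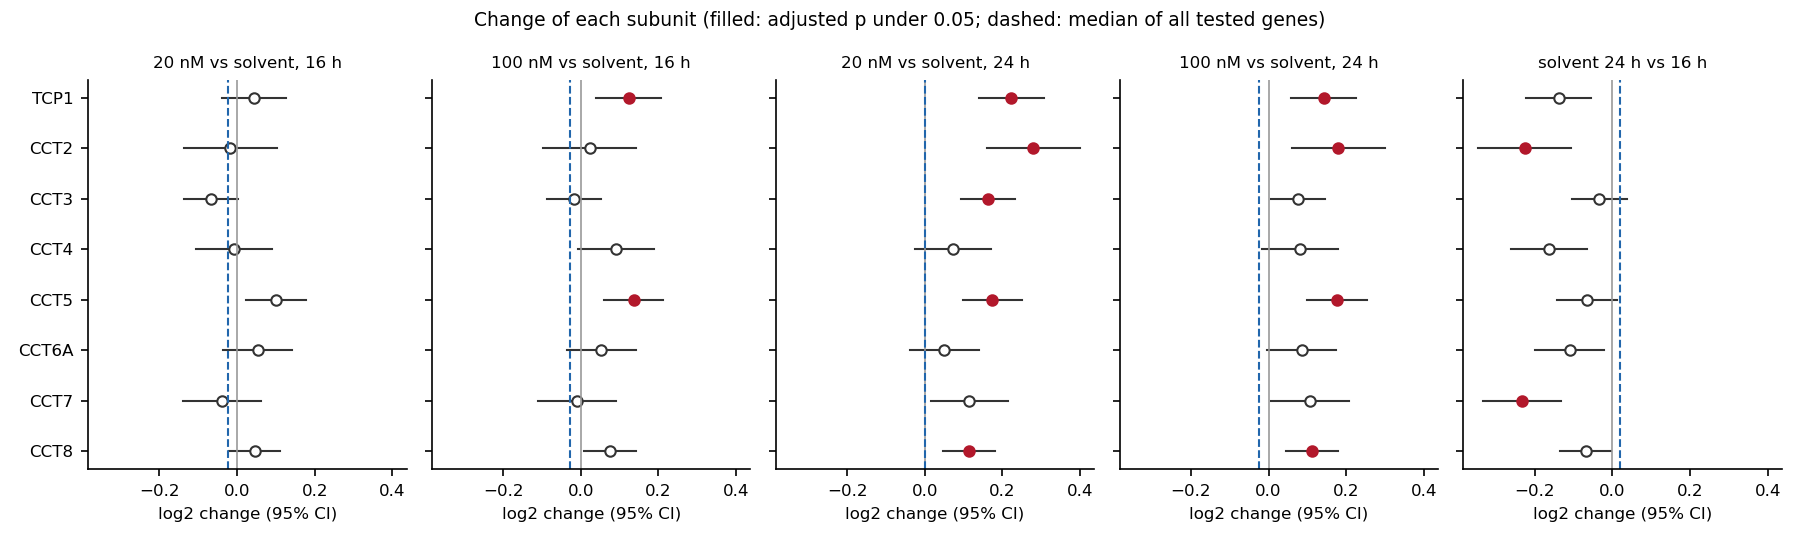
Log2 change of each subunit with its 95% confidence interval from the limma fit, in 5 comparisons; filled points have an adjusted p under 0.05 and the dashed line is the median of all tested genes. At 24 h all 8 points lie to the right of 0 at either dose, and in solvent all 8 lie to the left. Under TPM the sign turns for CCT3, CCT4, CCT5, CCT6A, CCT7 and CCT8 at 20 nM, for CCT3, CCT4 and CCT6A at 100 nM and for CCT3 in solvent.

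At 16 h fewer subunits were called. No subunit was called at 20 nM by limma, where 17.7% of all tested genes were called, with 6.78% of the tested genes higher and the other called genes lower. Of the 8, 1 subunit had an unadjusted p under 0.05, as did 4321 of all tested genes. That subunit was CCT5, with 603.7 and 620.4 FPKM at 20 nM, against 570.5 and 571.5 in solvent (0.10, SE 0.03, adjusted p = 0.0753). CCT3 was instead lower in both treated libraries, with 592.1 and 596.7 FPKM at 20 nM, against 634.4 and 611.9 in solvent (-0.07, adjusted p = 0.168). Of the 8 subunits, 3 had both treated libraries above both solvent libraries and 1 had them below, beside 27.1% and 36.1% of all tested genes. The 3 were CCT5, CCT6A and CCT8, and the median change of the 8 was 0.02, beside -0.02 over all tested genes.

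At 100 nM for 16 h, CCT5 and TCP1 rose, and 23.8% of all tested genes were called, 9.16% as higher and 14.7% as lower. CCT5 had 636.9 and 618.1 FPKM at 100 nM, against 570.5 and 571.5 in solvent (0.14, SE 0.03, adjusted p = 0.0201). TCP1 had 459.4 and 457.9 FPKM at 100 nM, against 430.0 and 412.5 in solvent (0.12, SE 0.04, adjusted p = 0.0400). TCP1 was close to the threshold: its call was lost without any 1 of 10 libraries (adjusted p between 0.0593 and 0.206), all but 7 and 8. CCT5 lost its call without library 3, 5 or 6 (adjusted p between 0.0802 and 0.106). CCT4, CCT6A and CCT8 also had both treated libraries above both solvent libraries, which makes 5 of 8, beside 26.6% of all tested genes. CCT4 had 253.9 and 254.7 FPKM at 100 nM, against 244.6 and 233.3 in solvent (0.09, adjusted p = 0.170). CCT8 had 365.4 and 360.3 FPKM at 100 nM, against 344.7 and 344.3 in solvent (0.07, adjusted p = 0.101). CCT2, CCT3 and CCT7 overlapped with solvent at 100 nM for 16 h, with changes of 0.02, -0.02 and -0.01. The median change of the 8 was 0.06, beside -0.03 over all tested genes.

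Between the doses no subunit was called. At 16 h, 100 nM against 20 nM gave 0 of 8 calls by limma, with 1 subunit and 1634 of all genes at an unadjusted p under 0.05, and 0.320% of all tested genes were called, 0.0446% as higher and 0.275% as lower. At 24 h the same comparison gave 0 of 8 calls, with 1 subunit and 3099 of all genes at an unadjusted p under 0.05, and 4.88% of all tested genes were called, 1.82% as higher and 3.06% as lower. CCT3 had the smallest p at 24 h, with 642.6 and 641.2 FPKM at 100 nM, against 684.3 and 679.2 at 20 nM (-0.09, 95% confidence interval -0.16 to -0.02, adjusted p = 0.138). TCP1 and CCT2 likewise had both 100 nM libraries below both 20 nM libraries at 24 h, as 31.0% of all tested genes did, with intervals of -0.16 to 0.00 and -0.22 to 0.02. CCT5 had a difference of 0.00 between the doses at 24 h, with an interval of -0.07 to 0.08.

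The level in solvent itself changed with time. From the 16 h to the 24 h solvent wells, CCT2 and CCT7 fell, and 5.62% of all tested genes were called, 3.14% as higher and 2.47% as lower. CCT7 had 571.2 and 554.3 FPKM in solvent at 24 h, against 670.5 and 652.6 in solvent at 16 h (-0.23, SE 0.04, adjusted p = 0.0237). CCT2 had 402.0 and 398.4 FPKM at 24 h, against 486.7 and 450.7 at 16 h (-0.23, SE 0.05, adjusted p = 0.0441). TCP1 had 380.1 and 385.0 FPKM at 24 h, against 430.0 and 412.5 at 16 h (-0.14, adjusted p = 0.0597). In 7 of 8 subunits both 24 h libraries were below both 16 h libraries, beside 25.6% of all tested genes, and the median change was -0.12, beside 0.02 over all tested genes. CCT3 was the exception, with 604.3 and 613.2 FPKM at 24 h, against 634.4 and 611.9 at 16 h. The call of CCT7 was lost without library 5, 6, 11 or 12 (adjusted p between 0.0755 and 0.147), and that of CCT2 without library 1, 2, 5, 6, 9, 10, 11 or 12 (adjusted p between 0.0691 and 0.213). TCP1 and CCT4 were called as well without library 7 or 8. These libraries lie outside this comparison and enter it only through the spread shared by all groups. The number of all genes called here also moved as libraries were left out. CCT4 had 214.5 and 212.2 FPKM at 24 h, against 244.6 and 233.3 at 16 h (-0.16, adjusted p = 0.0598 with all libraries). CCT6A had 246.8 and 239.8 FPKM at 24 h, against 265.5 and 259.8 at 16 h (-0.11, adjusted p = 0.123). The smallest of the gaps without overlap were those of CCT5 (-0.07, adjusted p = 0.263) and CCT8 (-0.07, adjusted p = 0.185).

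The solvent group at 24 h was thus the lowest of the 6 group means for 7 of 8 subunits in FPKM as deposited, as it was for 17.8% of all tested genes. Under TPM it was the lowest for TCP1 and CCT2 alone and the 20 nM group at 24 h for 5 subunits, while over nuclear genes it was the lowest for 6. The share of all tested genes was counted in FPKM as deposited alone. The same 2 libraries are the baseline of both 24 h drug comparisons and the later arm of the solvent comparison. The sum of the 8 subunits was 3673 ± 113 FPKM at 20 nM for 24 h and 3579 ± 20.8 at 100 nM for 24 h, against 3285 ± 19.8 in solvent at 24 h (SD, n = 2 each). At 16 h it was 3613 ± 51.0 FPKM at 20 nM and 3725 ± 5.01 at 100 nM, against 3592 ± 78.1 in solvent. The 24 h solvent sum lay below the other 5, and its libraries also had the 2 lowest FPKM totals. As a percent of library FPKM the 8 subunits held 0.350% ± 0.0112 at 20 nM and 0.364% ± 0.00511 at 100 nM for 24 h, against 0.357% ± 0.00709 in solvent. On that scale the 24 h solvent group was thus not the lowest. As a percent of nuclear FPKM they held 0.465% ± 0.00610 at 20 nM and 0.453% ± 0.00125 at 100 nM for 24 h, against 0.436% ± 0.00631 in solvent, which was the lowest of the 6 groups.

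The effect of 20 nM was larger at 24 h than at 16 h for CCT2 and CCT3, tested as the difference of both effects. The difference was 0.30 for CCT2 (SE 0.07, adjusted p = 0.0363) and 0.23 for CCT3 (SE 0.04, adjusted p = 0.0128), while 11.5% of all tested genes were called, 7.06% as higher and 4.46% as lower. Under TPM both calls were lost, with differences of 0.11 for CCT2 (adjusted p = 0.323) and 0.04 for CCT3 (adjusted p = 0.596). CCT3 combined a value of -0.07 at 16 h, which was not called, with the increase of 0.16 at 24 h. The solvent change over the same time, which enters the difference by definition, was -0.23 for CCT2 and -0.03 for CCT3. The call of CCT2 was lost without library 1, 2, 5, 7, 9, 10, 11 or 12 (adjusted p between 0.0571 and 0.116) and that of CCT3 without library 1, 5 or 11 (adjusted p between 0.0505 and 0.0559), and TCP1 was added without library 8 (adjusted p = 0.0271). For 100 nM, limma called none of the 8, none had an unadjusted p under 0.05, and 10.2% of all tested genes were called, 5.87% as higher and 4.29% as lower (3588 at an unadjusted p under 0.05).

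The sizes of these changes depend on how the libraries are scaled. Scaling all libraries to 1 common sum, as TPM does, moved the median of all genes to -0.16 in the comparison of 20 nM with solvent at 24 h, beside 0.00 as deposited. Under it no subunit rose, and 6 of 8 changed sign. CCT6A fell (-0.14, adjusted p = 0.0409), and CCT4 (-0.12), CCT8 (-0.07), CCT7 (-0.07), CCT3 (-0.02) and CCT5 (-0.01) were below 0 and not called. TCP1 (0.04) and CCT2 (0.09) stayed above 0 and lost their calls. Of the called genes, 10.9% were higher under TPM and 33.1% under a common sum over nuclear genes, beside 51.1% as deposited. Over nuclear genes alone, TCP1, CCT2, CCT3 and CCT5 remained called. In that comparison 570 of all tested genes were called as higher under TPM and 1323 over nuclear genes, beside 1984 as deposited. At 100 nM for 24 h, TPM called none of the 8, the nuclear sum called CCT5 alone and median-of-ratios scaling called 7. Of all tested genes, 1145, 1441 and 2472 were called as higher under these scalings, beside 2075 as deposited. They made up 23.4%, 30.0% and 53.2% of the called genes, beside 45.6%. Under TPM, CCT3 (-0.02), CCT4 (-0.01) and CCT6A (-0.01) changed sign there. At 100 nM for 16 h, TPM removed the calls of TCP1 (0.09, adjusted p = 0.135) and CCT5 (0.10, adjusted p = 0.0966). For solvent at 24 h against 16 h, 1, 4 and 4 subunits were called as lower under TPM, the nuclear sum and median of ratios. Of all tested genes, 212, 544 and 573 were called as lower there, beside 333 as deposited. The share of called genes that were higher was 82.0%, 40.0% and 38.5%, beside 56.0%. Under TPM, CCT3 changed sign in that comparison (0.02, not called).

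The changes of the 8 were also set beside the median of all genes. A scaling multiplies all genes of a library by the same factor, so the distance to that median hardly moves between scalings. Agreement among the 4 scalings is therefore built in and does not test the pattern. By definition, as many genes lie above that median as below it. At 20 nM for 24 h all 8 subunits were above that median under each of the 4 scalings, with a median distance of 0.11 to 0.14 on the log2 scale. At 100 nM for 24 h all 8 were above it, with a median distance of 0.12 to 0.14, and at 100 nM for 16 h with 0.09 to 0.10. In solvent at 24 h against 16 h all 8 were below it under each scaling, with a median distance of -0.15 to -0.14. At 20 nM for 16 h, 6 were above it and 2 below it under each scaling.

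**Figure D3:**
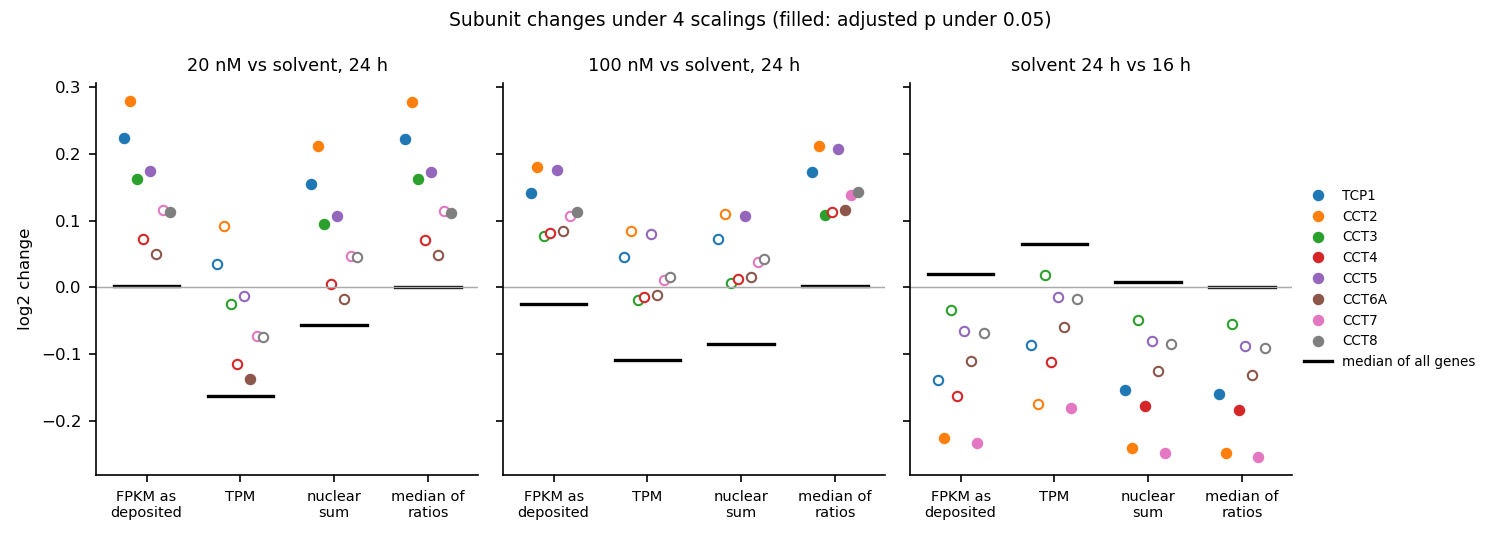
Log2 change of the 8 subunits in 3 comparisons under 4 scalings of the libraries: FPKM as deposited, TPM, a common sum over nuclear genes and median of ratios. Filled points have an adjusted p under 0.05 and black bars are the median of all tested genes. The points move with the bars because a scaling shifts all genes of a library nearly alike. They lie above the bars in both drug comparisons and below them in solvent.

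The composition of the set can be read without any scaling, as the share of each subunit in the summed FPKM of the 8. CCT3 changed its share most, from a lowest 16.3% to a highest 18.9% over the libraries, and CCT8 least, from 9.45% to 10.0%. CCT3 held 18.6% ± 0.475 at 20 nM for 24 h and 17.9% ± 0.0769 at 100 nM for 24 h, against 18.5% ± 0.303 in solvent (SD, n = 2 each). At 16 h it held 16.5% ± 0.142 at 20 nM and 16.5% ± 0.264 at 100 nM, against 17.3% ± 0.0671 in solvent. Its share was thus higher at 24 h than at 16 h in all 6 libraries of each time. The share of CCT7 was lower in all 24 h libraries than in all 16 h libraries, with 16.6% ± 0.278 at 20 nM and 16.9% ± 0.262 at 100 nM for 24 h, against 17.1% ± 0.261 in solvent. At 16 h it held 17.8% ± 0.451 at 20 nM and 17.6% ± 0.238 at 100 nM, against 18.4% ± 0.0467 in solvent. CCT5 held 16.9% ± 0.0895 at 20 nM and 16.8% ± 0.379 at 100 nM for 16 h, against 15.9% ± 0.366 in solvent. CCT4 and CCT6A, the 2 scarcest subunits, held their lowest shares at 20 nM for 24 h, 6.11% ± 0.133 and 6.86% ± 0.0771, against 6.49% ± 0.0101 and 7.41% ± 0.107 in solvent. No test was made on the shares.

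**Figure D4:**
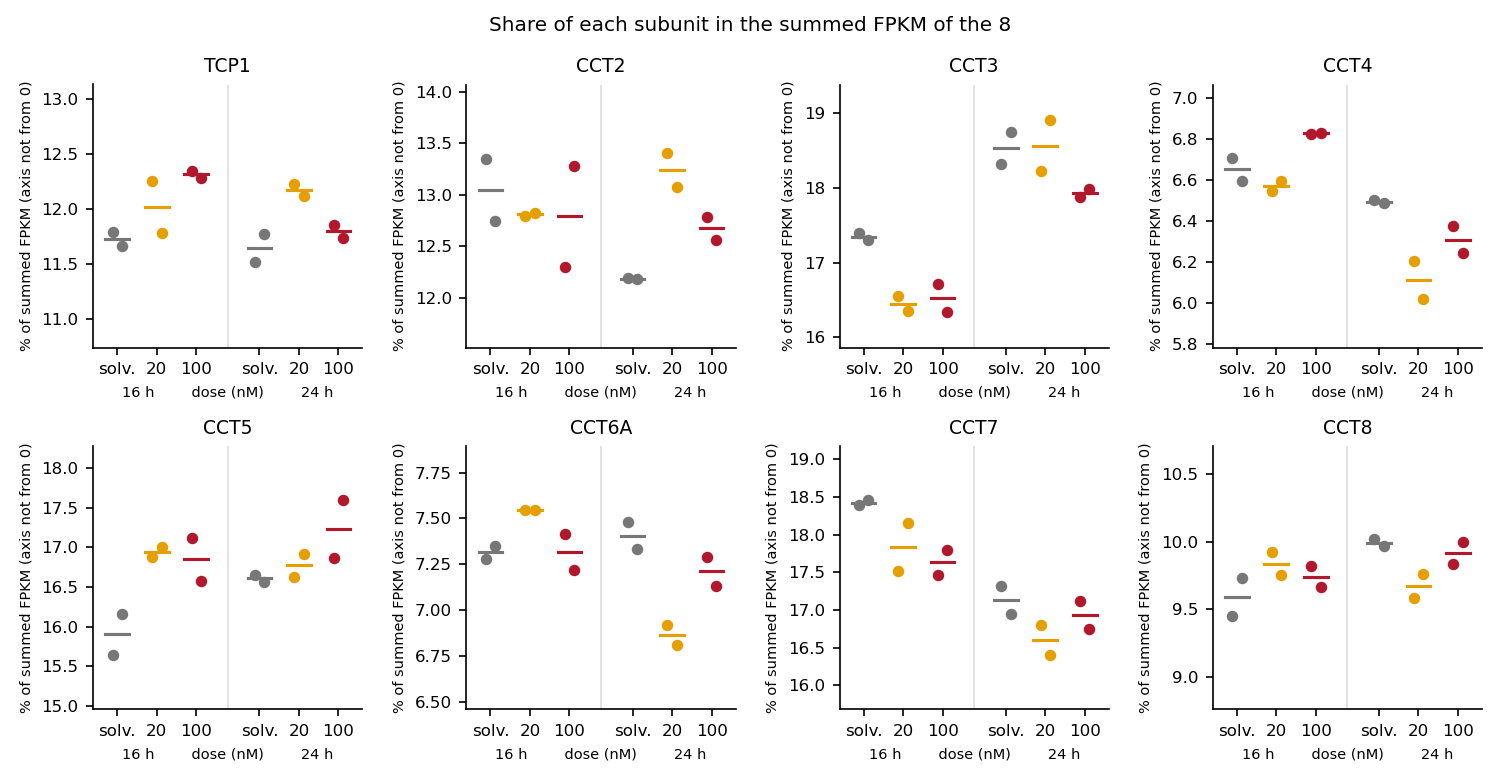
Share of each subunit in the summed FPKM of the 8, in percent, in each of the 12 libraries (points) with group means as bars; axes do not start at 0. CCT3 lies higher at 24 h than at 16 h and CCT7 lower, while CCT8 stays between 9.45% and 10.0%.

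The genes whose 6 group means followed the median course of the 8 subunits most closely were RTCB, ICMT, LGMN, GLB1 and SMIM30. The measure was the root-mean-square difference of centred log2 group means, over the 7335 protein-coding genes with a mean of at least 10 FPKM, and it was 0.0125 to 0.0166 for these 5, beside a median of 0.129. The 8 subunits themselves define that course, so their own closeness to it is partly built in and does not test a shared course. Of them, CCT8 was at 0.0231, with 12 eligible genes closer, and TCP1 at 0.0253, with 14 closer. CCT5 had 92 closer, CCT2 and CCT6A 110 each, CCT7 235 and CCT4 240. CCT3 was the furthest at 0.0786, with 1264 closer. RTCB, a tRNA ligase, averaged 42.4 FPKM, ICMT, a methyltransferase of prenylated proteins, 76.3 FPKM, and LGMN, a lysosomal protease, 27.3 FPKM.

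Start-site windows from RefSeq (GRCh38.p14), 250 bases before to 50 after each start, were matched for 7 of the 8 subunits. They are shown for TCP1, CCT2 and CCT8, which were called at both doses for 24 h. CCT5 was the fourth such gene, and its only window held none of the motifs searched. The start site of that window lies 616 bases downstream of the GENCODE start of CCT5. The bases around that GENCODE start were not searched. Capitals mark the motif matches, and each run is 5′ to 3′ on the strand of the gene. The window of TCP1 is chr6:159789553-159789852 on the minus strand, that of CCT2 is chr12:69585209-69585508 on the plus strand and that of CCT8 is chr21:29073599-29073898 on the minus strand.
TCP1: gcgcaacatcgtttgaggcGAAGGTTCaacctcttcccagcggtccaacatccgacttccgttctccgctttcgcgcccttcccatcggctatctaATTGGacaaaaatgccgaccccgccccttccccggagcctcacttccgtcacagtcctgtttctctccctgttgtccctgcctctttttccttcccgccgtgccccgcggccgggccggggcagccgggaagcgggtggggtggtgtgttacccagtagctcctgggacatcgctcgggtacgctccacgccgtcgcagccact
CCT2: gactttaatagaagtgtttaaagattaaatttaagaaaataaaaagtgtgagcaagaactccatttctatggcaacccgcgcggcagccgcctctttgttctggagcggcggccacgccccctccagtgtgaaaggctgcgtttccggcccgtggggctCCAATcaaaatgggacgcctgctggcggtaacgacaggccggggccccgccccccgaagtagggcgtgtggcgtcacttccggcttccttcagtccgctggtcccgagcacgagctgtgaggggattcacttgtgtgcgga
CCT8: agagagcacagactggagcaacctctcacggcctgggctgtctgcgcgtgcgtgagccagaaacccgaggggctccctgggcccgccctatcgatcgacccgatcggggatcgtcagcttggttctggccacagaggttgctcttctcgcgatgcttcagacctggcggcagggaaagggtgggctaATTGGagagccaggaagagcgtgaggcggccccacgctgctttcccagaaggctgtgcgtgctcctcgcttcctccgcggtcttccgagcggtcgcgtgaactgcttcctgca

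Both strands were searched for the CCAAT box (CCAAT), the heat shock element cores GAANNTTC and TTCNNGAA, the E-box CACGTG and the ZNF143 core ACTACAATT. CCT2 and CCT4 have 2 windows each, so the 7 subunits have 9 windows. The CCAAT box was present in 4 of these 9 windows (1 each of CCT2, CCT3, CCT8 and TCP1), beside 34.6% of 35116 windows of the same length. Counted by gene that is 4 of 7 subunits, beside 39.7% of 27305 genes. Counted from the start site, it stood at position -154 in TCP1, -91 in CCT2 and -63 in CCT8. GAANNTTC was present in 2 of 9 windows, in TCP1 at position -231 and in another window of CCT2 at -89, beside 6.77% of all windows. These positions count from the RefSeq start site. It lies 125 to 149 bases downstream of the GENCODE start of the gene in the windows shown. In that other window of CCT2 it lies 555 bases downstream, and in the window of CCT3 29581 bases. TTCNNGAA was present in 1 of 9, a window of CCT4, beside 7.74% of all windows. CACGTG and ACTACAATT were present in none, beside 7.26% and 0.336%.

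Among factors reported to act on subunit genes, MYC mRNA had 280.3 and 276.3 FPKM at 20 nM for 24 h, against 245.3 and 247.2 in solvent (0.18, adjusted p = 0.0340), a sign that turned under TPM (-0.01). At 100 nM for 24 h MYC had 297.3 and 296.2 FPKM, against the same solvent values (0.27, adjusted p = 0.00465). At 16 h it fell by 0.20 at 20 nM and by 0.35 at 100 nM (adjusted p = 0.0330 and 0.00179). HSF1, the heat shock factor, rose at 16 h by 0.21 at 20 nM and 0.26 at 100 nM (adjusted p = 0.00467 and 0.00105). At 24 h HSF1 rose at 100 nM (0.15, adjusted p = 0.0116), a call made under 2 of 4 scalings, with a lowest value of 0.05, and had 0.03 at 20 nM (adjusted p = 0.507), with -0.15 under TPM. ZNF143 rose at 16 h (0.50 and 0.36 at 20 and 100 nM, adjusted p = 0.00165 and 0.00604) and HSF2 at 20 nM for 24 h (0.41, adjusted p = 0.0236), the last called under 3 of 4 scalings, with a lowest value of 0.23.

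Prefoldin subunits, which deliver substrates to TRiC, were called only as higher. Of the 6 genes, 2 rose at 20 nM and 2 at 100 nM for 16 h, and 4 rose at 20 nM and 5 at 100 nM for 24 h, with none lower. In the same order 6.78%, 9.16%, 14.7% and 15.4% of all tested genes were called as higher. The list medians were 0.14 and 0.11 at 16 h and 0.18 and 0.22 at 24 h, beside -0.02, -0.03, 0.00 and -0.02 over all tested genes. Under TPM none were called at 20 nM and 1 at 100 nM for 24 h, and 3 of the 6 (PFDN2, PFDN4 and PFDN6) changed sign at 20 nM. PFDN2, a beta-type prefoldin subunit, rose in all 4 drug comparisons, though at 20 nM for 24 h its sign turned under TPM. It had 448.8 and 441.9 FPKM at 100 nM for 24 h, against 324.2 and 319.0 in solvent (0.47, adjusted p = 0.000302), and was called there under all 4 scalings. At 20 nM for 24 h its change was 0.17 (adjusted p = 0.0361), with -0.02 under TPM. PFDN5, an alpha-type subunit also known as a MYC-binding protein, had 424.3 and 380.6 FPKM at 20 nM for 24 h, against 318.6 and 325.4 in solvent (0.32, adjusted p = 0.00499). That call was made under 3 of 4 scalings, and the lowest value was 0.13 (highest adjusted p = 0.135). Of the 3 prefoldin-like subunits, PDRG1 rose at 24 h by 0.39 at 20 nM and 0.63 at 100 nM (adjusted p = 0.0213 and 0.00219) and URI1 by 0.30 and 0.24 (adjusted p = 0.00287 and 0.00596). Both were called at 100 nM under all 4 scalings, but at 20 nM neither was called under TPM, where PDRG1 had 0.21 (adjusted p = 0.144) and URI1 had 0.11 (adjusted p = 0.0951).

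PDCL3, a phosducin-like protein that binds TRiC and modulates tubulin and actin folding, rose at 24 h. It had 51.8 and 46.2 FPKM at 20 nM, against 37.2 and 34.1 in solvent (0.45, adjusted p = 0.00157), and 0.34 at 100 nM (adjusted p = 0.00413), and it was called under all 4 scalings at both doses. The other 2 tested members of that list of 4, PDCL and TXNDC9, were not called at 24 h, with a list median of -0.10 at 20 nM and -0.07 at 100 nM; PDCL fell at 100 nM for 16 h (-0.31, adjusted p = 0.0102). Of the 5 tubulin cofactors found, TBCB and TBCC rose and TBCD fell at both doses for 24 h, and TBCA rose at 100 nM. At 24 h, 14.7% and 15.4% of all tested genes rose at 20 and 100 nM, and 14.1% and 18.4% fell. The calls of TBCC held under 3 of 4 scalings at each dose and that of TBCA under 2, while those of TBCB and TBCD held under all 4. TBCB, which binds alpha-tubulin released from the chaperonin, had 198.9 and 192.9 FPKM at 20 nM and 192.6 and 190.0 at 100 nM, against 159.5 and 155.7 in solvent (0.31 and 0.28, adjusted p = 0.000629 and 0.000825). TBCD, the cofactor that binds beta-tubulin, had -0.19 and -0.25 (adjusted p = 0.0314 and 0.00799).

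The main substrates were mostly called as lower. Of 14 tubulin and actin genes, 9 fell and 1 rose at 20 nM for 16 h, 8 fell and 3 rose at 100 nM for 16 h, 8 fell and none rose at 20 nM for 24 h, and 8 fell and 3 rose at 100 nM for 24 h. Of all 13458 tested genes, 1476, 1972, 1896 and 2475 were called as lower in the same order. Those called as higher were 912, 1233, 1984 and 2075. TUBB, the main beta-tubulin, had 753.3 and 788.0 FPKM at 20 nM and 561.6 and 590.3 at 100 nM for 24 h, against 1042.8 and 1069.9 in solvent (-0.45 and -0.87, adjusted p = 0.00014 and 2.31e-06). Under TPM all 14 were called as lower at 20 nM for 24 h. So were 4666 of all tested genes, beside 1896 as deposited, and the median of all genes was -0.16. The actin ACTB rose at 100 nM (0.13 at either time, adjusted p = 0.0329 at 16 h and 0.0225 at 24 h), called under 2 of 4 scalings at each time, and at 20 nM for 24 h had 0.04, with -0.15 under TPM. Of 13 other substrates, FZR1, an activator of the anaphase-promoting complex, fell in all 4 drug comparisons, with 28.9 and 31.9 FPKM at 20 nM and 23.5 and 24.9 at 100 nM for 24 h, against 45.7 and 47.5 in solvent (-0.60 and -0.92, adjusted p = 0.000224 and 1.53e-05). Its fellow activator CDC20 rose at 16 h at both doses (0.60 and 0.65, adjusted p = 0.000519 and 0.000181) and at 100 nM for 24 h (0.35, adjusted p = 0.00344). PLK1, a mitotic kinase, rose at 16 h (0.45 and 0.65 at 20 and 100 nM, adjusted p = 8.77e-05 and 6.81e-06) and fell at 24 h (-0.45 and -0.17, adjusted p = 0.000104 and 0.00628). Over the 13, 3 rose and 1 fell at 20 nM and 3 rose and 2 fell at 100 nM for 16 h, and 2 rose and 3 fell at 20 nM and 3 rose and 3 fell at 100 nM for 24 h. In the same order 17.7%, 23.8%, 28.8% and 33.8% of all tested genes were called in either direction. Their list median was -0.01 at 20 nM and 0.01 at 100 nM for 24 h.

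**Figure D5:**
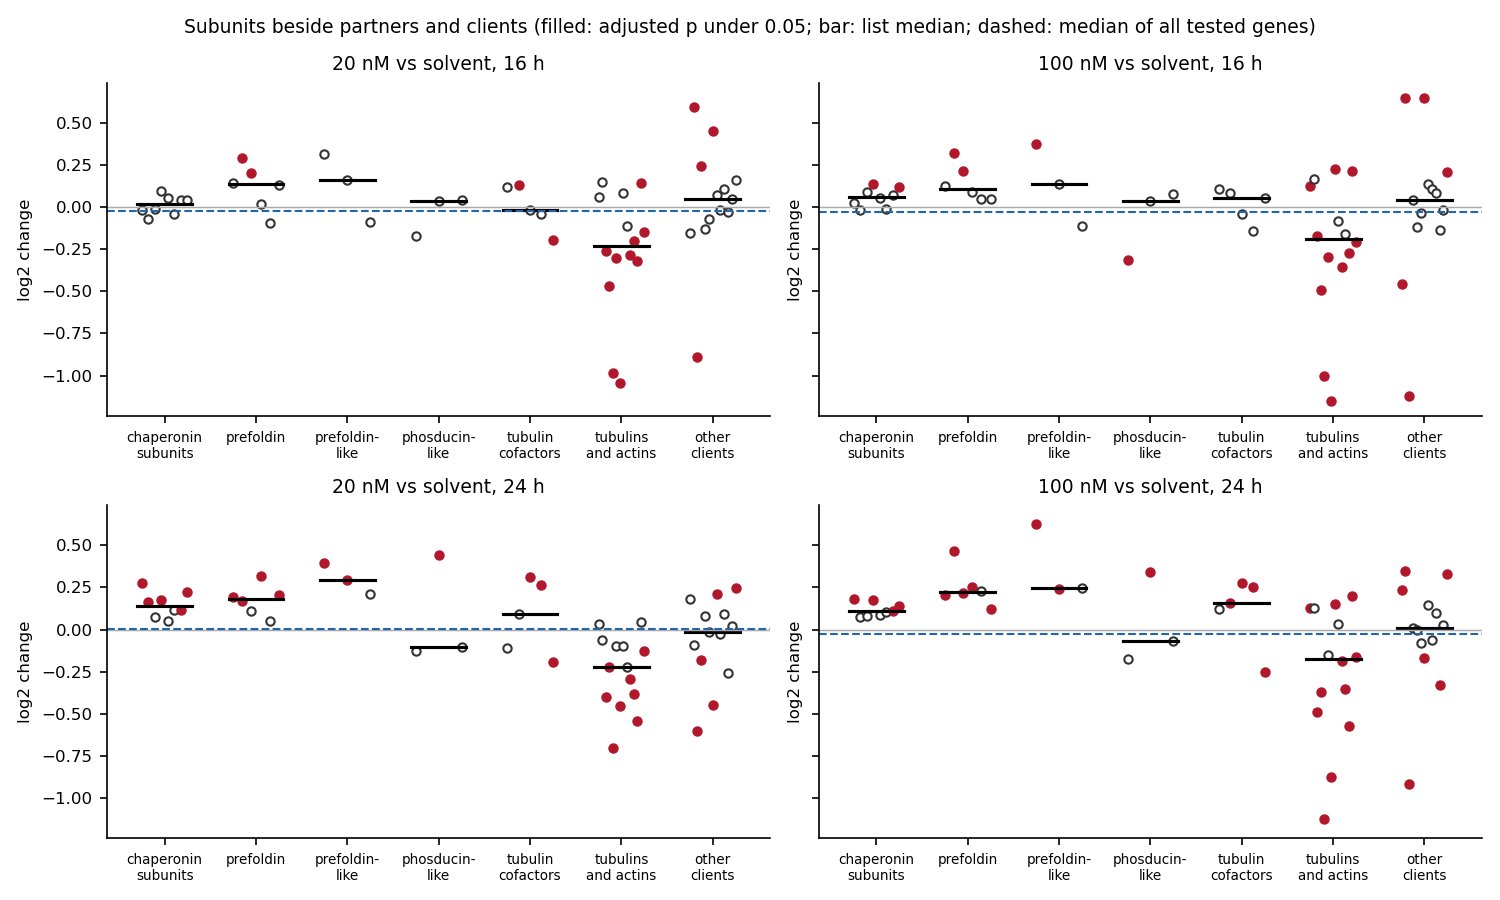
Log2 change of the chaperonin subunits beside their co-chaperones, tubulin cofactors and substrates in the 4 drug comparisons; each point is a gene, filled where adjusted p is under 0.05, bars are list medians and the dashed line is the median of all tested genes. At 24 h the subunit and prefoldin medians lie above the dashed line and the median of tubulins and actins below it.

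Of the 5 tested genes linked to chaperonins but outside the complex, 1 rose in each drug comparison. It was HSPD1 at 20 nM for 24 h and HSPE1, not itself a chaperonin subunit, in the others. BBS10 fell at 100 nM for 16 h (-0.25, adjusted p = 0.0309, called under 3 of 4 scalings). Over the drug comparisons, 6.78% to 15.4% of all tested genes were called as higher. HSPD1, the mitochondrial chaperonin, had 1290.3 and 1450.8 FPKM at 20 nM for 24 h, against 1111.9 and 1141.7 in solvent (0.28, adjusted p = 0.00410). It was called there under 3 of 4 scalings, with a lowest value of 0.09 (highest adjusted p = 0.187). Its partner HSPE1 rose at 20 nM and 100 nM for 16 h (0.27 and 0.32, adjusted p = 0.0138 and 0.00465) and at 100 nM for 24 h (0.21, adjusted p = 0.0208, called under 2 of 4 scalings, lowest value 0.12), and had 0.01 at 20 nM for 24 h, with -0.18 under TPM. CCT6B, the testis form of CCT6A, reached 0.49 FPKM and CCT8L2 was listed at 0 in every library. MKKS, a chaperonin-like protein of the BBS complex, lay between 14.8 and 16.5 FPKM in 9 libraries and at 227.1, 108.9 and 97.0 FPKM in libraries 2, 10 and 11, so its group values are not compared.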

How the data were processed

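Poly(A) RNA from 12 HCT116 wells was sequenced as paired reads from a directional kit, per the labels' protocols. The authors deposited FPKM per Ensembl gene, rounded to 2 decimals, and per the submitters' processing notes the tools and build include RSEM 1.2.28 and GRCh38. Which aligner, annotation release and strand setting served is not given in the sources used here, and the deposited FPKM carry no depth in reads, so no counting error could be given. Columns were assigned to groups by the dose and time in their names, and libraries keep the table's own numbers.

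Genes were named from GENCODE 29 (57836 of 58174 matched). Those with at least 1 FPKM in at least 2 libraries (13458) were tested as log2(FPKM + 1) with limma 3.58.1 in R 4.3.3, with a mean-dependent prior and 6 group means, and adjusted by Benjamini-Hochberg over all tested genes in each of 9 comparisons. A fold on this scale understates changes of low genes. Any 2 libraries of 1 group held identical values for 1.00% to 1.20% of tested genes, so none was a copy. Alternatives were pseudocounts of 0.1 and 0.5, no filter, a minimum of 5 FPKM, TPM, a common sum over nuclear genes, median-of-ratios scaling, a constant prior, protein-coding genes only, 1 time point alone and each library left out. The subunits and gene lists were chosen with earlier results of these data known. Named genes were the 8 subunits, members of the lists and the 5 protein-coding genes of at least 10 FPKM with the most similar group means. The ATP-site motif was searched as 4 residues, since 1 subunit lacks the longer form planned. Promoters came from RefSeq.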

Additional observations from a re-analysis of the deposited data

Results flagged for a closer look

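The effect of 20 nM dolastatin 15 differed between 24 h and 16 h for CCT2 and CCT3, by the limma test of the difference itself. For CCT2 the difference was 0.2969 on the log2 scale (adjusted p = 0.0363), with an effect of 0.28 at 24 h and -0.02 at 16 h. For CCT3 it was 0.231 (adjusted p = 0.0128), with an effect of 0.16 at 24 h and -0.07 at 16 h. Over the alternatives the adjusted p lay between 0.0285 and 0.323 for CCT2 and between 0.0111 and 0.596 for CCT3, and the highest values came under TPM, where the differences were 0.11 and 0.04. The solvent change from 16 h to 24 h enters this difference by definition. For CCT2 it was -0.23, with means of 469 and 400 FPKM in solvent at 16 h and 24 h. At 20 nM the means of CCT2 were 463 and 486 FPKM. For CCT3 the solvent change was -0.03, with means of 623 and 609 FPKM, against 594 and 682 FPKM at 20 nM. The cause of the solvent change was not tested.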

How the results depend on the processing

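Of 1560 subunit values over all alternatives, 1455 kept their direction and side of the threshold or changed sign with neither value called (65), 83 lost the call, 18 gained it and 4 reversed. The 4 were CCT3 (-0.0249), CCT5 (-0.0135), CCT6A (-0.137) and CCT8 (-0.0744) at 20 nM for 24 h under TPM, where the median of all genes moved by -0.17. Subunits called under TPM were 0 at 100 nM for 16 h, 1 at 20 nM (CCT6A, as lower) and 0 at 100 nM for 24 h. In solvent over time TPM called 1, and in the difference of the 20 nM effect 0. Under the nuclear sum the subunits called were 1 at 100 nM for 24 h, 4 in solvent and 1 in the difference. Under median-of-ratios scaling they were 1 and 4 at 20 and 100 nM for 16 h, 7 at 100 nM for 24 h and 4 in solvent. With no filter they were 1 at 100 nM for 16 h, 0 in solvent and 1 in the difference. With a constant prior they were 0 at 100 nM for 16 h, 2 at 100 nM for 24 h, 0 in solvent and 1 in the difference, and with 1 time point alone 2 at 100 nM for 24 h. At 100 nM for 16 h, all genes called were 3299 (TPM), 3293 (median of ratios), 2466 (no filter) and 3038 (constant prior), beside 3205. At 100 nM for 24 h they were 4884 (TPM), 4798 (nuclear), 4646 (median of ratios), 4413 (constant prior) and 3482 (time point alone), beside 4550. At 20 nM they were 2457 (median of ratios) for 16 h, beside 2388, and 5236 (TPM) for 24 h, beside 3880. The causes were not tested.

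Genes called between doses were 28 (constant prior) and 18 (time point alone) at 16 h, beside 43, and 334 (no filter), 411 (constant prior) and 10 (time point alone) at 24 h, beside 657. In solvent they were 326 (no filter), 1179 (TPM), 906 (nuclear), 931 (median of ratios) and 530 (constant prior), beside 756. In the difference of the 20 nM effect they were 1008 (no filter) and 2455 (TPM), beside 1550. The share of called genes that were higher was 50.5% under median of ratios at 20 nM for 16 h, beside 38.2%, and 27.7% under TPM and 49.8% under median of ratios at 100 nM for 16 h, beside 38.5%. Between doses it was 3.45% (TPM) beside 14.0% at 16 h, and 82.8% (TPM) and 57.9% (median of ratios) beside 37.3% at 24 h. In the difference of the 20 nM effect it was 14.1% (TPM), 40.1% (nuclear) and 50.8% (median of ratios) beside 61.3%, and for 100 nM 37.7% (TPM) and 39.7% (nuclear) beside 57.7%.

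Leaving out 1 library gave 0 subunits called at 20 nM and 0 to 2 at 100 nM for 16 h, 4 to 6 at 20 nM and 1 to 4 at 100 nM for 24 h, 0 between doses, 0 to 4 in solvent, and 0 to 3 and 0 in the differences of the 20 and 100 nM effects. Genes called were 1036 to 2774 and 1781 to 3615 at 16 h, 2153 to 3765 and 2757 to 5005 at 24 h, 15 to 65 and 42 to 1511 between doses, 23 to 1437 in solvent, and 705 to 1753 and 632 to 1787 in the differences. No paired analysis was possible because the columns carry a library number and not the sample number of the labels. Depth in reads is unknown, so no limit from counting error can be set.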
